A study of Rattus norvegicus with 14 samples.

Results

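Distal medium-density CpG tiles are stretches of 1000 bases of the rat genome that hold an intermediate number of readable CpG cytosines and lie away from CpG-dense stretches. They were chosen by position, density and coverage, and the rule uses no methylation value. Chromosomes 1 to 20 were divided into tiles of 1000 bases from position 1, and a cytosine was counted as listed where it stood in any of the 13 files. A member had 20 to 39 listed cytosines, no tile of 60 or more listed cytosines (a dense tile) within 5 tiles on either side, and at least 3 cytosines each present in at least 3 files of every group. Of 85300 tiles with 20 to 39 listed cytosines, 76840 had no dense tile near, and 21551 of these also met the last condition. The members were 33.4% of the 64549 tiles that could be tested and came from 1933118 tiles with any listed cytosine. The median member held 27 listed cytosines, of which 5 qualified for the test (range 3 to 34), and the qualifying ones spanned a median of 173 bases. Only 9.43% of the qualifying cytosines had the cytosine of the opposite strand at the next base also qualifying. Listed cytosines were counted on both strands and depend on sequencing depth, so density here is that of cytosines read, not of CpG sites in the genome.

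In mammalian DNA, a methyl group is added to cytosine mainly where a guanine follows it, and most such CpG sites are methylated. CpG islands, which hold many CpG sites and often overlap promoters, are mostly free of methylation, and their flanks (shores) have intermediate levels. Away from islands, regions of moderate CpG density include gene bodies, repeats and regulatory elements such as enhancers, and methylation of these elements often differs between cell types. The tiles here carry no gene, exon or enhancer label, because annotation of the assembly of the files (mRatBN7.2) was not used here, and for the same reason no base sequence is given.

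The study compared oesophagus of male rats, 8 to 9 weeks old, after a surgical defect was repaired with a cell-free bi-layer silk fibroin (BLSF) scaffold. Week 1 libraries (4 analysed of 5 samples) came from the new tissue in the original graft area at day 7. Day 1 libraries (5) came from host tissue punched out around the edge of the defect, within 2 mm, at day 1. NSC libraries (4) came from full-thickness oesophagus of non-surgical controls, which had neither defect nor scaffold. Reduced representation bisulfite sequencing reads methylation in the CpG-rich fragments that the enzyme MspI cuts out. These were bulk tissues from different sites, so a changed mixture of cell types and a changed level within a cell type cannot be told apart. The files hold no expression values, and the labelled tissue was therefore not checked against marker genes. Time and tissue site differ together between week 1 and day 1, and the codes of the samples follow the groups, so processing order and group cannot be told apart either.

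Summed reads per library ran from 9676493 to 49782600, over 1432898 to 4181382 listed cytosines with at least 5 reads each. Day 1 replicate 2 was the shallowest and stood apart: it had reads at 24.9% of the members, against 87.2% to 99.5% in the other 12 libraries. Levels were therefore compared over the 2965 members with at least 10 summed reads in every library, called complete members (13.8% of all). Their median read count ran from 22 in day 1 replicate 2 to 202 in NSC replicate 2. The methylation of a tile in a library is the share of methylated reads summed over its qualifying cytosines. A read that covers several cytosines was counted at each of them.

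The complete members were mostly methylated, with a small separate group of unmethylated tiles. The median tile stood at 80.2% in week 1, 82.8% in day 1 and 74.7% in NSC, where each tile's level is its group mean. The middle portion of tiles, between the 25th and 75th percentiles, ran from 52.3% to 89.8% in week 1, from 55.3% to 91.8% in day 1 and from 48.3% to 86.8% in NSC. The 5th percentile was under 1% in every group, at 0.869% in week 1, 0.889% in day 1 and 0.621% in NSC. Tiles under 20% made up 15.6% ± 0.337 of the complete members in week 1 libraries (SD, n = 4), 15.7% ± 1.18 in day 1 libraries (n = 5) and 15.4% ± 0.321 in NSC libraries (n = 4). Tiles at 20 to 50% made up 8.81% ± 0.855 in week 1, 8.11% ± 0.273 in day 1 and 11.1% ± 0.472 in NSC. Tiles at 50 to 80% made up 24.9% ± 1.86 in week 1, 20.8% ± 2.22 in day 1 and 33.1% ± 0.236 in NSC. Tiles at 80% and above made up 50.7% ± 2.60 in week 1, 55.4% ± 2.06 in day 1 and 40.4% ± 0.159 in NSC. The shares under 20% overlapped between all groups, whereas the NSC shares at 80% and above (40.1% to 40.5%) lay below those of week 1 (46.9% to 52.5%) and day 1 (52.5% to 57.7%).

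**Figure D1:**
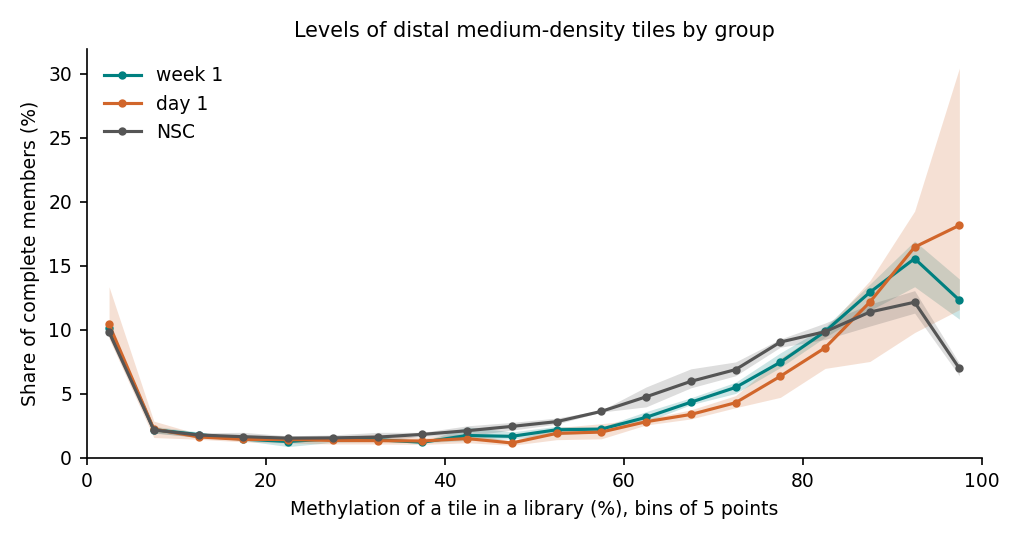
Share of the 2965 complete members (y axis, percent) in each 5 point bin of tile methylation (x axis, percent). Lines are group means over libraries and bands run from the lowest to the highest library; the group means near 0% lie close together, and above 90% the week 1 and day 1 lines lie above NSC.

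The share at 80% and above was larger by 10.3 points in week 1 than in NSC (SE 1.30), by 15.0 points in day 1 than in NSC (SE 0.924), and smaller by 4.70 points in week 1 than in day 1 (SE 1.59). Exact two-sided permutation tests over libraries gave p = 0.0286, 0.0159 and 0.0317 in that order of contrasts, and 0.0635 for each after Benjamini-Hochberg adjustment over 6 tests, so none passed at 0.05. The smallest p these group sizes allow is 0.0286 for week 1 against NSC and 0.0159 for the contrasts with day 1. With at least 30 reads per tile in every library (923 members) all 3 shares passed, with adjusted p = 0.0343, 0.0317 and 0.0317 by the exact test and differences of 9.26, 14.0 and -4.70 points. The share under 20% did not pass in any contrast as tested over all complete members (0.219 points for week 1 minus NSC, adjusted p = 0.429; 0.324 points for day 1 minus NSC, adjusted p = 0.990; -0.105 points for week 1 minus day 1, adjusted p = 1, all by the exact permutation test). With at least 30 reads per tile it passed against NSC, at 0.840 points for week 1 (adjusted p = 0.0343, exact permutation) and 1.18 points for day 1 (adjusted p = 0.0317, exact permutation). Over all complete members the difference of week 1 and day 1, like that of day 1 minus NSC, turned sign when day 1 replicate 2 was left out (0.413 and -0.194 points).

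The members at the lowest, highest and median level were named for their level over all libraries. The lowest of the 1546 members with at least 20 reads in every library lay at chr1:242380001-242381000 (mRatBN7.2), with 38 listed and 10 qualifying cytosines. It had no methylated read among 498 reads of the 4 week 1 libraries, 389 reads of the 5 day 1 libraries and 703 reads of the 4 NSC libraries. Those totals allow a level of up to 0.602% in week 1, 0.771% in day 1 and 0.427% in NSC (3 counts of the total, for counting error only). The limits take reads at neighbouring cytosines as independent. A read that covers several cytosines was counted at each of them, so the limits may be too low. The highest lay at chr16:58420001-58421000 and stood at 97.9% ± 0.824 in week 1 (SD, n = 4), 98.7% ± 0.896 in day 1 (n = 5) and 98.3% ± 0.227 in NSC (n = 4), with 33 to 2596 reads per library. The median member, at chr3:881001-882000, stood at 79.4% ± 1.22 in week 1, 78.5% ± 5.01 in day 1 and 76.6% ± 7.80 in NSC. All 3 groups overlapped in the median member.

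The SD between cytosines of a member was smaller at the extremes of level than in between. In NSC, 8944 members had at least 5 cytosines with at least 40 reads each over the pooled NSC libraries. The SD between cytosines of a tile had a median of 1.70 points in the 1356 tiles under 20% and of 8.03 points in the 4001 tiles at 80% and above. It was 16.9 points in the 829 tiles at 20 to 50% and 17.1 points in the 2758 tiles at 50 to 80%. Of the tiles at 20 to 50%, 199 (24%) had an SD of 25 points or more and 147 (17.7%) an SD under 10 points. Of those at 50 to 80%, 541 (19.6%) and 368 (13.3%) did. In most tiles of intermediate level the SD between cytosines was thus 10 points or more, which includes counting error of the pooled reads. Percentages near either end of the scale leave less room for spread and carry less counting error. The classes therefore cannot be compared for how alike their cytosines are.

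Members stood between the shore tiles and the sparse tiles in every library. Shore tiles have the same 20 to 39 listed cytosines but a dense tile within 5 tiles, and distal sparse tiles have under 20 listed cytosines and no dense tile near. Complete members lay above the 454 complete shore tiles by 32.1 ± 1.27 points (SD over 13 libraries, range 30.3 to 33.6), higher in 13 of 13 libraries. They lay below the 4027 complete distal sparse tiles, with a difference of -9.99 ± 0.422 points (range -10.5 to -9.24), lower in 13 of 13 libraries. The exact two-sided paired permutation test gave p = 0.000244 for both, the smallest that 13 libraries can give, and the same after adjustment over 2 tests. Tiles under 20% made up 53.5% of shore tiles in week 1, 53.3% in day 1 and 54.5% in NSC, and 4.34%, 4.74% and 4.12% of distal sparse tiles in those groups.

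Within the members, tiles with more listed cytosines were less methylated. Complete members with 20 to 24 listed cytosines averaged 71.9% in week 1, 73.8% in day 1 and 68.6% in NSC. Those with 25 to 29 averaged 68.6% in week 1, 69.9% in day 1 and 63.9% in NSC. Those with 30 to 34 averaged 62.4%, 64.1% and 60.1% in the same groups, and those with 35 to 39 averaged 57.8%, 59.7% and 55.5%. In NSC the share of tiles under 20% went with this: it was 9.66%, 11.9%, 19.6% and 26.8% over the 4 density bands, from sparse to dense. Distance to the nearest dense tile went with a smaller span of levels. Members 6 to 10 tiles away averaged 61.2% in week 1, 63.0% in day 1 and 58.6% in NSC, and members over 100 tiles away averaged 69.0%, 70.9% and 65.4%. The 3 bands between them lay at 65.3% to 66.8% in week 1, 67.1% to 68.3% in day 1 and 62.3% to 64.1% in NSC, in no steady order. None of these bands was tested against another.

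**Figure D2:**
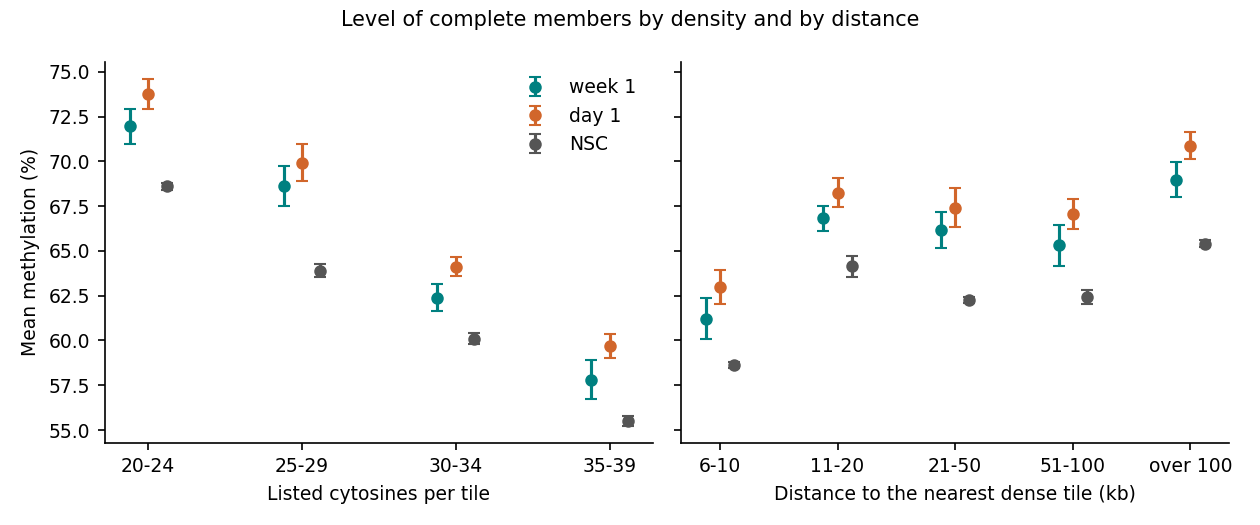
Mean methylation of complete members (y axis, percent; points are group means, bars SD over 4, 5 and 4 libraries) by listed cytosines per tile (left) and by distance to the nearest dense tile in kb (right). The level falls from the 20 to 24 band to the 35 to 39 band in each group, and NSC lies below week 1 and day 1 in every band.

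Levels just inside and just outside the thresholds of the rule were as follows. Complete tiles with 20 listed cytosines averaged 75.1% in week 1, 76.5% in day 1 and 70.7% in NSC, and distal tiles with 19, just outside, averaged 75%, 76.7% and 72.4%. Tiles with 39 listed cytosines averaged 54.4% in week 1, 55.6% in day 1 and 53.2% in NSC, and those with 40, just outside, averaged 51.8%, 52.6% and 47.5%. Tiles whose nearest dense tile was 6 tiles away averaged 60.9% in week 1, 63.8% in day 1 and 59.9% in NSC, and those at 5 tiles, just outside, averaged 56.9%, 58.4% and 53.5%. These edge groups hold 43 to 270 complete tiles each and were not tested.

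The first comparison asked how host tissue at the margin of the repair differed from unoperated oesophagus at 1 day. Members were more methylated at day 1, and in percentage points the groups lay furthest apart in tiles of 50 to 80%. The mean over complete members was 69.33, 67.91, 68.34, 69.28 and 67.70% in day 1 replicates 1 to 5, against 63.31, 63.42, 63.50 and 63.76% in NSC replicates 1 to 4. All 5 day 1 libraries lay above all 4 NSC libraries. The group means were 68.5% ± 0.762 (SD, n = 5) in day 1 and 63.5% ± 0.191 (n = 4) in NSC, a difference of 5.01 points (SE 0.354, exact two-sided permutation p = 0.0159, adjusted p = 0.0317 over 3 contrasts). Leaving out any library gave 4.80 to 5.21 points. When any 1 of the 4 NSC libraries was left out the adjusted p was 0.0536 by the exact permutation test. The difference could not pass there, since its unadjusted p of 0.0357 (exact permutation) was the smallest that those group sizes allow. When day 1 replicate 2 was left out and a member had to have 10 reads in each of the other 12 libraries, the set grew to 12932 members (60% of all). Over these, day 1 averaged 75.2% ± 1.08 (n = 4) and NSC 68.5% ± 0.298 (n = 4), a difference of 6.65 points (exact permutation, adjusted p = 0.0429).

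**Figure D3:**
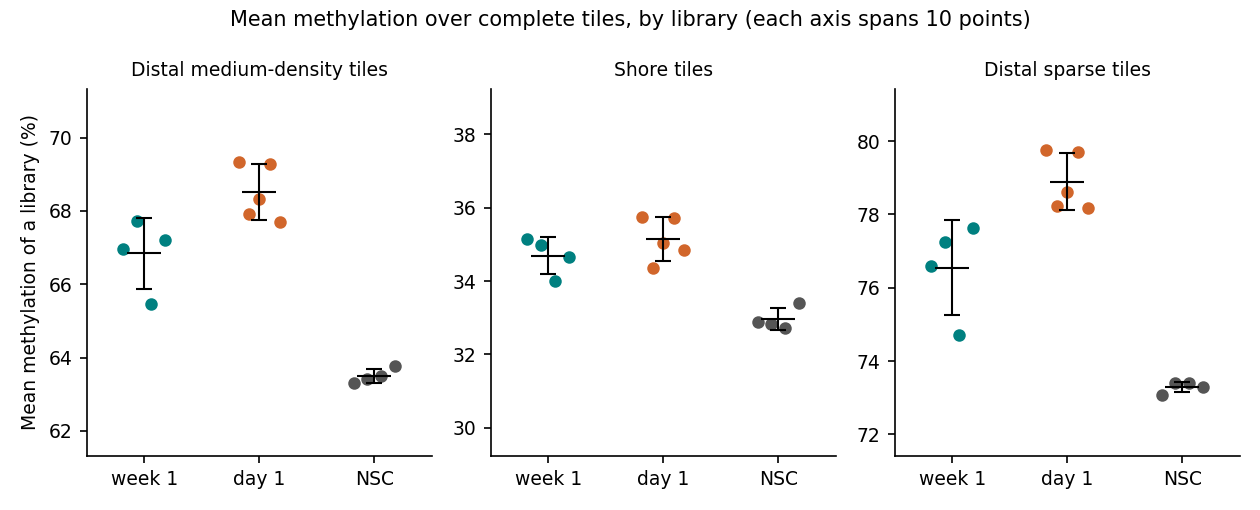
Mean methylation of each library (points; y axis, percent, each panel spanning 10 points from its own start) over complete distal medium-density, shore and distal sparse tiles, with the group mean and SD as bars. Week 1, day 1 and NSC hold 4, 5 and 4 libraries, and in every panel all week 1 and day 1 points lie above all NSC points.

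The size of the difference in percentage points varied with the level of the tile. Members were grouped by the midpoint of the day 1 and NSC means, so that neither group set the class alone. The 400 members at 50 to 70% averaged 66.4% in day 1 and 56.5% in NSC, 9.89 points apart. The 476 members at 70 to 80% averaged 79.7% in day 1 and 71.1% in NSC, 8.61 points apart. The 752 members at 80 to 90% averaged 88.7% in day 1 and 82.0% in NSC, and the 626 members at 90 to 100% averaged 94.9% in day 1 and 92.2% in NSC. In each of these 4 classes every day 1 library lay above every NSC library, and 74.8% to 84.0% of the tiles were higher at day 1. The classes below 50% did not share this. The 331 members under 10% averaged 2.47% in day 1 and 2.22% in NSC, and the 208 members at 30 to 50% averaged 41.3% in day 1 and 40.3% in NSC, with overlapping libraries in both classes. The 172 members at 10 to 30% averaged 18.4% in day 1 and 19.9% in NSC, 1.58 points lower at day 1 with no overlap, although 51.7% of these tiles were higher at day 1. These classes are a description and were not tested. Near either end of the scale fewer points of difference are possible, so they do not show where the change was relatively largest.

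Tile by tile, 2441 of the 21551 members (11.3%) differed between day 1 and NSC by edgeR's quasi-likelihood test on methylated and unmethylated reads, with a Benjamini-Hochberg adjusted p below 0.05 over all 64549 tiles and a difference of at least 10 points. Over all tiles tested the share was 9.03%. Of these members, 1954 (9.07%) were higher at day 1, where 7.17% of all tiles were, and 487 (2.26%) were lower, where 1.86% of all tiles were. Among shore tiles 7.91% differed, and among distal sparse tiles 9.30% did. The median difference over all members was 4.85 points and 74.6% were above 0, against 3.36 points and 70.9% over all tiles tested. Distal sparse tiles stood slightly above the members, at 5.09 points and 76.0%. Shore tiles stood at 1.21 points and 60.2%, and dense tiles at 0.0448 points and 52.2%. When limma tested percentages after centring each library on its median tile, the split turned, with 1243 members higher and 2818 lower at day 1. Without that centring limma gave 2476 higher and 502 lower. The share called over all tiles is not given for limma. Centring moved the median difference of all tiles to -6.17 points. Without centring that median was 3.36 points, so centring took off more than the median gain. A tile that gained less than the amount taken off counts as lower, even where it gained more than the median. Directions are therefore given here on the uncentred scale.

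The members that were higher at day 1 were at a median of 86.3% in day 1 and 52.8% in NSC. The members that were lower had a median of 23.1% in day 1 and 73.1% in NSC. In 1750 of the 1954 and in 428 of the 487 the libraries of both groups did not overlap, as in 4128 of 4626 higher and 1077 of 1202 lower tiles among all tiles tested. Among the 2965 complete members, where reads were never missing, the groups did not overlap in 717 (24.2%), against 19.5% of all complete tiles. Those higher at day 1 were 576 (19.4% of complete members, against 15.6% of all complete tiles), and those lower at day 1 were 4.76% of complete members, against 3.86% of all complete tiles. In either direction, the share without overlap was 23.4% in complete distal sparse tiles, close to that of the members. It was 17.4% in complete shore tiles and 5.89% in complete dense tiles. Over complete members the difference ran from -61.9 to 68.6 points, its central portion (25th to 75th percentile) from -0.0472 to 11.2 points, and 42.7% differed by under 5 points. The count of called members fell by more than 1.5 times when any 1 of 4 libraries was left out. It was 1372 without day 1 replicate 1, 1401 without day 1 replicate 4, 1464 without NSC replicate 1 and 1610 without NSC replicate 3. It was 2462 without day 1 replicate 2. Counting only cytosines with at least 10 reads left 4589 members, of which 711 were higher and 159 lower at day 1. For this setting and the runs without a library, the share called over all tiles is not given.

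**Figure D4:**
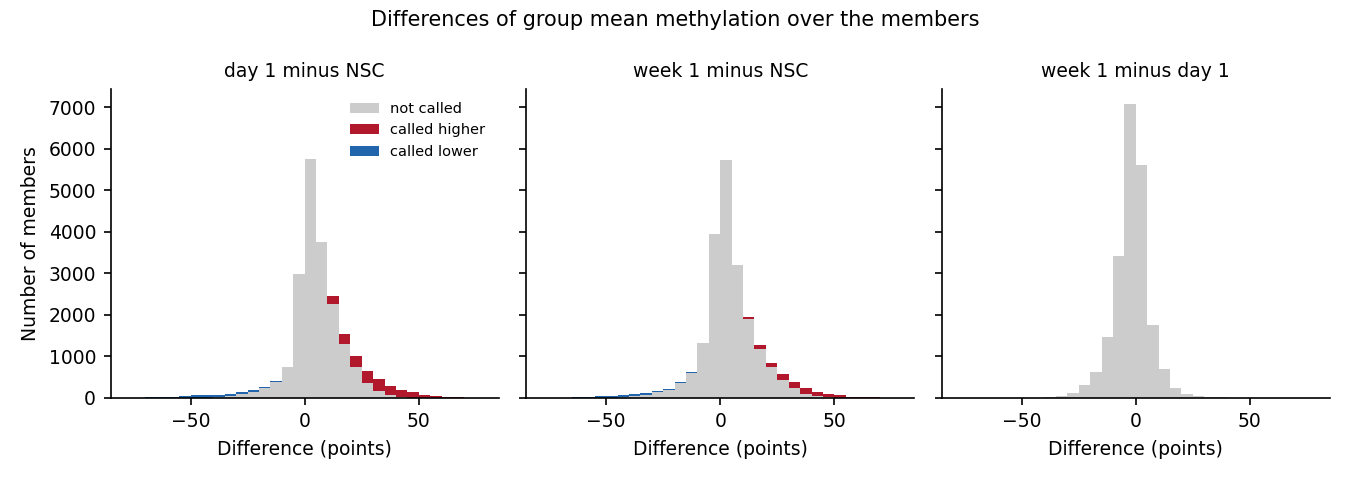
Number of members (y axis) in each 5 point bin of the difference of group mean methylation (x axis, percentage points) for day 1 minus NSC, week 1 minus NSC and week 1 minus day 1. Grey tiles did not pass, red tiles passed as higher and blue tiles as lower; the first 2 panels lean to the right of 0 and the third, with no tile that passed, slightly to the left.

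The named members differed by 48.3 to 61.9 points between day 1 and NSC. The tiles named in each contrast with NSC are the 5 largest gains and 5 largest losses among members that passed, had at least 20 reads in every library and did not overlap between groups. For day 1, 168 gains and 62 losses met these conditions. Positions are those of mRatBN7.2, and adjusted p-values are from edgeR over all tiles tested. The largest gain lay at chr1:40946001-40947000, a tile of 36 listed and 8 qualifying cytosines. Its methylation was 63.8, 76.0, 54.7, 66.7 and 58.8% in day 1 replicates 1 to 5, against 0.654, 4.27, 12.1 and 3.43% in NSC replicates 1 to 4. Week 1 replicates 1 to 4 stood between them, at 25, 42.4, 30.4 and 53.8%. The tile was at or below 12.1% in every control and was 58.9 points higher at day 1 (SE 4.39, adjusted p = 3.54e-05). The smallest read count behind these values was 25, in day 1 replicate 2, whose 76.0% has a 95% Wilson interval of 56.6% to 88.5%. All 8 cytosines moved the same way. The cytosine at 40946237 stood at 78.6% in day 1 and 5.99% in NSC, and that at 40946239 at 39.4% in day 1 and 6.36% in NSC. Such intervals cover counting error only and take reads at neighbouring cytosines as independent.

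The gain at chr2:224171001-224172000 was of similar size. This tile stood at 76.4, 79.2, 67.5, 70.6 and 61.0% in day 1 replicates 1 to 5, against 11, 18.6, 18.6 and 8.96% in NSC replicates 1 to 4, a difference of 56.6 points (SE 4.10, adjusted p = 3.54e-05). Week 1 libraries stood at 50.2, 64.5, 42.4 and 57.3%, all above NSC. The tile at chr4:96352001-96353000 stood at 69.0, 86.4, 55.8, 92.3 and 64.3% in day 1, against 11.3, 18.1, 19.2 and 20.3% in NSC (56.3 points, SE 7.14, adjusted p = 0.000183). The spread between day 1 libraries was wide in this tile, and lack of overlap with NSC was a condition for naming. The remaining gains lay at chr19:21197001-21198000, with 92.9% ± 5.76 in day 1 (SD, n = 5) and 41.0% ± 10.9 in NSC (n = 4), and at chr15:97390001-97391000, with 82.7% ± 14.4 in day 1 and 34.3% ± 10.2 in NSC. In the chromosome 15 tile, week 1 averaged 55.2% and overlapped NSC. In all 5 tiles every qualifying cytosine was higher at day 1.

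The largest loss at day 1 lay at chr1:11783001-11784000. It stood at 7.11, 0, 27.3, 7.04 and 25% in day 1 replicates 1 to 5, against 71.4, 78.2, 80.2 and 70.7% in NSC replicates 1 to 4. Day 1 replicate 2 had no methylated read among 26, which allows up to 11.5% if reads at neighbouring cytosines are taken as independent. Week 1 libraries stood at 35.8, 27.6, 32.7 and 15.3%, also below NSC. The tile was 61.9 points lower at day 1 (SE 5.92, adjusted p = 0.000103). Its cytosines did not start alike: that at 11783724 stood at 18.9% in day 1 and 88.6% in NSC, and that at 11783495 at 15.0% in day 1 and 55.1% in NSC. The tile with the most reads among the named day 1 losses, chr2:185531001-185532000, had 146 to 902 reads per library. It had no test when the cytosines of highest coverage were left out. In it the NSC level climbed along the tile, from 68.5% at the cytosine at 185531122 to 88.6% at 185531256. The same cytosines stood at 15.1% and 17.2% in day 1 and at 5.82% and 15.2% in week 1.

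The tile at chr19:50747001-50748000 stood at 8.24, 3.57, 15.1, 11.5 and 38.5% in day 1, against 81.0, 74.8, 79.02 and 72.2% in NSC (61.4 points lower, SE 6.40, adjusted p = 5.32e-05). Day 1 replicate 5 was the highest of its group, and lying below NSC was a condition for naming. The tile at chr11:50176001-50177000 averaged 22.1% ± 12.4 in day 1 (SD, n = 5) and 79.0% ± 10.3 in NSC (n = 4). The tile at chr3:115241001-115242000 averaged 27.1% ± 15.0 in day 1 and 81.1% ± 6.40 in NSC. In all 5 losses every qualifying cytosine was lower at day 1.

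The second comparison set tissue grown in the grafted area by 1 week against unoperated oesophagus. Members were again more methylated, by less than at day 1. This contrast shares its 4 NSC libraries with the first, so the contrasts are not independent. The mean over complete members was 66.95, 67.73, 65.47 and 67.21% in week 1 replicates 1 to 4, all above the NSC values given. The group means were 66.8% ± 0.971 (SD, n = 4) in week 1 and 63.5% ± 0.191 (n = 4) in NSC, a difference of 3.34 points (SE 0.495, exact two-sided permutation p = 0.0286, the smallest possible, adjusted p = 0.0317). Over the 12932 members complete in 12 libraries, week 1 averaged 73.1% ± 1.28 and NSC 68.5% ± 0.298, 4.61 points apart (exact permutation, adjusted p = 0.0429). Grouped by the midpoint of week 1 and NSC, the 443 members at 50 to 70% averaged 65.1% in week 1 and 58.7% in NSC. The 488 members at 70 to 80% averaged 78.5% in week 1 and 72.4% in NSC, the 782 at 80 to 90% averaged 87.3% and 83.2%, and the 529 at 90 to 100% averaged 93.9% and 92.8%. Libraries of the groups did not overlap in these 4 classes and overlapped in the 3 classes under 50%.

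Of the members, 1302 (6.04%) differed between week 1 and NSC by edgeR's test with the same thresholds, against 4.79% of all tiles tested. There were 969 higher at week 1 (4.50%, against 3.5% of all tiles) and 333 lower (1.55%, against 1.29% of all tiles). Among shore tiles 4.78% differed, and among distal sparse tiles 4.82% did. The median difference over all members was 2.90 points, with 65.8% above 0, against 1.67 points and 62.4% over all tiles tested. Distal sparse tiles stood close to the members, at 2.85 points and 65.3%, and shore tiles at 0.653 points and 56.3%. The members that were higher had a median of 86.1% in week 1 and 47.7% in NSC, and those that were lower had a median of 26.2% in week 1 and 74.2% in NSC. Groups did not overlap in 910 of the 969 and 312 of the 333, as in 2129 of 2259 higher and 790 of 834 lower tiles among all tiles tested. Among complete members they did not overlap in 649 (21.9%, against 17.4% of all complete tiles), 482 of them higher (12.5% of all complete tiles were) and 167 lower (4.88% of all complete tiles were). In either direction, the share without overlap was 19.2% in complete distal sparse tiles and 18.3% in complete shore tiles. The limma test on percentages called 1591 higher and 416 lower, and after centring 797 higher and 963 lower, with the median difference of all tiles at -4.85 points. The edgeR count fell by more than 1.5 times when any 1 of 7 libraries was left out. It was 848, 801 and 546 without week 1 replicates 1, 2 and 4, and 711, 807, 776 and 805 without NSC replicates 1 to 4. Without week 1 replicate 3 it was 1233. For limma and for the runs without a library, the share called over all tiles is not given.

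Conditions for naming were met by 89 gains and 48 losses at week 1. The largest gain was the chr4:96352001-96353000 tile, also named at day 1. It stood at 68.1, 87.2, 69.2 and 77.4% in week 1, 58.2 points above NSC (SE 4.86, adjusted p = 0.000406). Its 5 cytosines were not equal: 4 of them, from 96352297 to 96352355, stood at 66.6% to 83.0% in week 1 and 9.82% to 22.0% in NSC, whereas that at 96352933 stood at 59.3% in week 1 and 50.01% in NSC. The tile at chr17:4549001-4550000 stood at 98.3, 82.1, 97.4 and 91.8% in week 1 and 94.3, 72.7, 93.9, 65.4 and 69.0% in day 1, against 45.8, 59.6, 47.1 and 40.8% in NSC (44.1 points for week 1 minus NSC, SE 5.46, adjusted p = 0.0036). Its left neighbour was 38.8 points higher in week 1 and 27.6 points higher in day 1 than in NSC. The tile at chr1:90000001-90001000, with 13 qualifying cytosines that were all higher, averaged 74.3% ± 11.6 in week 1 (SD, n = 4), 70.5% ± 12.1 in day 1 (n = 5) and 30.5% ± 10.9 in NSC (n = 4). The tile at chr11:62391001-62392000 averaged 83.8% ± 11.4 in week 1, 88.5% ± 8.70 in day 1 and 40.7% ± 3.95 in NSC. The tile at chr3:155969001-155970000 averaged 84.0% ± 11.9 in week 1, 75.3% ± 9.05 in day 1 and 40.9% ± 8.48 in NSC. In it 7 of 8 cytosines were higher at week 1, and with every listed cytosine counted its week 1 difference of 29.6 points did not pass (edgeR adjusted p = 0.0688).

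The losses at week 1 included the tiles on chromosomes 2, 11 and 3 already named at day 1, and both contrasts share the NSC libraries. The chromosome 2 tile lost most, and stood at 12.9, 10.1, 10.1 and 17.1% in week 1, 66.0 points below NSC (SE 2.46, adjusted p = 1.08e-07). The chromosome 11 tile stood at 24.6, 0, 28.4 and 30.5% in week 1, against 68.7, 93.0, 74.9 and 79.4% in NSC. Its 52 reads in week 1 replicate 2, summed over 12 cytosines, allow up to 5.77% if taken as independent. A read that covers several cytosines was counted at each of them, so this limit may be too low. The chromosome 3 tile averaged 30.9% ± 9.85 in week 1. The deepest of the named losses, chr19:54823001-54824000, had up to 1831 reads in a library. Like the chromosome 2 tile, it had no test when the cytosines of highest coverage were left out. It stood at 1.38, 0, 7.76 and 0% in week 1 and at 9.22, 4.48, 13.3, 12.01 and 18.95% in day 1, against 48.1, 57.2, 57.1 and 55.7% in NSC. The 2 week 1 libraries at 0 had 325 and 370 reads, which allow up to 0.923% and 0.811% if likewise taken as independent. The tile at chr9:15169001-15170000 averaged 10.5% ± 6.40 in week 1, 11.5% ± 9.41 in day 1 and 59.4% ± 1.62 in NSC, and all 11 of its cytosines, spread from 15169097 to 15169952, were lower in both operated groups.

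**Figure D5:**
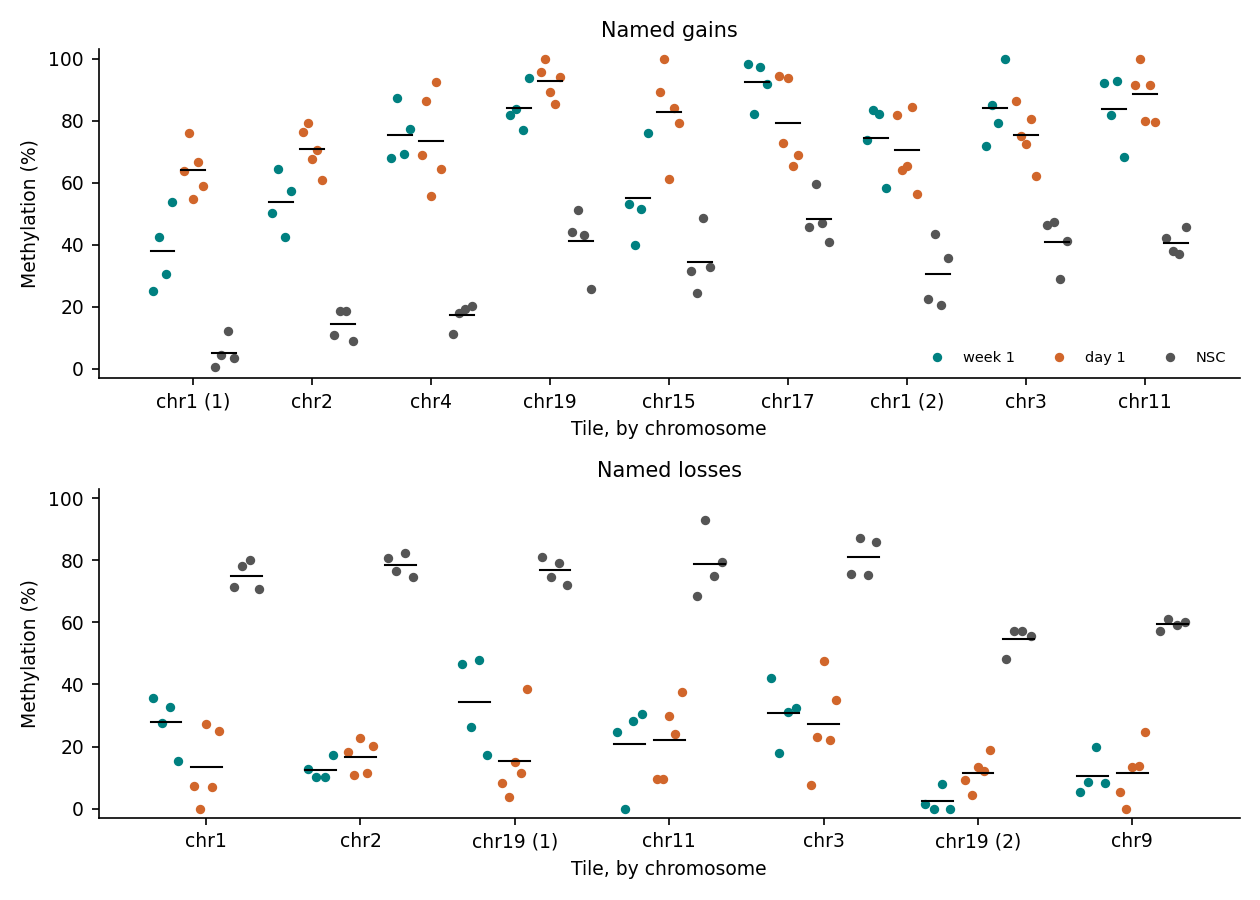
Methylation (y axis, percent) of each library (points, with the group mean as a line) in the named gains (top) and named losses (bottom), by chromosome, for week 1, day 1 and NSC. Every week 1 and day 1 point lies above all NSC points in each gain except that on chromosome 15, where week 1 and NSC overlap. In each loss every week 1 and day 1 point lies below all NSC points. Lack of overlap with NSC was required in the contrast for which a tile was named.

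The third comparison set the grafted area at 1 week against host tissue at the margin at 1 day. The mean over complete members was lower in week 1, by 1.67 points (SE 0.593, exact two-sided permutation p = 0.0317, adjusted p = 0.0317), with overlapping groups: week 1 replicate 2 (67.73%) lay above day 1 replicate 5 (67.70%). This difference did not pass over the 12932 members complete in 12 libraries, where week 1 averaged 73.1% ± 1.28 and day 1 75.2% ± 1.08 (-2.04 points, exact permutation, adjusted p = 0.0571). It passed in 1 of the 9 analyses that left out a library, that without day 1 replicate 5, and lay between -1.97 and -1.21 points in all of them. Without a week 1 library it could not pass after adjustment, since the smallest unadjusted p there is 0.0357 (exact permutation). Grouped by midpoint, the largest drop in percentage points was in the 414 members at 70 to 80%, at 74.2% in week 1 and 77.3% in day 1, and all 7 classes overlapped. No member passed edgeR's test with the thresholds used, where 0.0% of all tiles tested did. Unadjusted p was below 0.05 in 1392 members (6.46%, against 6.20% of all tiles), the lowest adjusted p was 0.324, and limma also called 0. Groups did not overlap in 90 complete members (3.04%, against 2.93% of all complete tiles), 21 of them higher in week 1 (0.403% of all complete tiles were) and 69 lower (2.53% of all complete tiles were). In either direction, the share without overlap was 4.27% in complete distal sparse tiles and 0.441% in complete shore tiles. The chr19:54823001-54824000 tile was 9.30 points lower in week 1 than in day 1 without passing (SE 3.02, edgeR adjusted p = 0.548).

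The change of the members was set against that of shore and distal sparse tiles within each library. Over complete tiles the members gained more than the shore tiles. Their lead over shore tiles was 32.1 ± 0.617 points in week 1, 33.4 ± 0.314 points in day 1 and 30.5 ± 0.187 points in NSC (SD, n = 4, 5 and 4). The lead was larger by 1.60 points in week 1 than in NSC (SE 0.322, adjusted p = 0.0429), by 2.83 points in day 1 than in NSC (SE 0.169, adjusted p = 0.0317), and smaller by 1.22 points in week 1 than in day 1 (SE 0.339, adjusted p = 0.0317), by exact permutation tests adjusted over 6. With at least 10 reads per cytosine, which left 661 complete members, no difference from shore tiles passed: the values were -0.184 points for week 1 minus NSC, turned in sign, 1.15 points for day 1 minus NSC and -1.33 points for week 1 minus day 1 (adjusted p = 0.800, 0.119 and 0.0952, exact permutation). The gap to distal sparse tiles was -9.71 ± 0.504 points in week 1, -10.4 ± 0.0840 points in day 1 and -9.79 ± 0.197 points in NSC. The difference of this gap between day 1 and NSC was -0.587 points by the mean over tiles (SE 0.106, adjusted p = 0.0317, exact permutation) and 1.39 points by the median over tiles (adjusted p = 0.0429, exact permutation). The direction against sparse tiles thus depended on that choice. For week 1 minus NSC the difference from sparse tiles was 0.0832 points (adjusted p = 0.800, exact permutation), and for week 1 minus day 1 it was 0.671 points (adjusted p = 0.0952).

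The higher level in both operated groups was spread over the genome. The mean over complete members was above NSC on 20 of 20 chromosomes in week 1 (1.15 to 5.22 points) and on 20 of 20 in day 1 (2.77 to 6.96 points). Libraries of day 1 and NSC did not overlap on any of the 20 chromosomes, and those of week 1 and NSC did not on 16. The week 1 mean was below day 1 on every chromosome but 17, where it was 0.194 points higher. In NSC the mean ran from 56.6% on chromosome 4 to 69.8% on chromosome 15. The share of members that differed at day 1 ran from 9.68% on chromosome 3 to 13.2% on chromosome 1. The share that passed as higher at day 1, without those lower, varied little with density. It ran from 8.56% in members of 35 to 39 listed cytosines to 9.40% in those of 25 to 29.

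Most changed members had no tested tile beside them. Of the 1954 members higher at day 1, 434 had a tested tile beside them, and in 97 of these 434 a neighbour had also passed as higher, in 2 as lower, where 7.17% and 1.86% of all tiles tested had. Their neighbours differed by a median of 9.09 points, against 3.36 points over all tiles tested. Of the 487 lower members, 113 had a tested neighbour, which had passed as lower in 25 and as higher in 2, and these neighbours differed by a median of -1.99 points. At week 1, 36 of 215 higher members and 19 of 83 lower members with a tested neighbour had a neighbour that passed in the same direction. In 2 of the higher and 2 of the lower members a neighbour passed in the opposite direction. Of all tiles tested, 3.5% passed as higher and 1.29% as lower at week 1. Within the tiles higher at day 1, 95.3% of 11507 qualifying cytosines moved up, and in 1575 tiles (80.6%) all did. Within the tiles lower at day 1, 94.0% of 2685 moved down, and in 386 tiles (79.3%) all did. At week 1 the shares were 95.6% of 5765 cytosines in higher tiles and 95.7% of 1909 in lower tiles. Tile calls are sums over these cytosines, and neighbouring cytosines share reads, so this agreement is a description.

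The spread between libraries of a group was smallest in the controls. The median SD between libraries over complete members was 5.17 points in week 1, 5.60 points in day 1 and 4.40 points in NSC. When every cytosine was thinned to 5 reads, the medians were 6.58, 6.96 and 6.34 points in the same groups. This was not tested.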

How the data were processed

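DNA methylation was measured by reduced representation bisulfite sequencing of 14 samples, of which 13 had a file and were analysed. Genomic DNA was cut with MspI, large fragments were removed, and DNA was bisulfite-converted before library preparation, per the labels' protocols. Trim Galore, FastQC, Bismark 0.23.0, methylKit 1.14.2 and the assembly mRatBN7.2 are named in the submitters' processing notes, without roles. For each cytosine the deposited files give 2 counts, of methylated and of all reads, and a methylation percent. Every listed cytosine had at least 5 reads, which was checked on the files. The deposited counts were not normalized, and percentages were recomputed from them.

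Groups follow the time label. Replicates were numbered in accession order and pair no samples. No label states whether the samples of a group are separate animals. The p-values therefore cover only the spread among these samples, part of which may be technical. Methylated and unmethylated counts were summed per tile over qualifying cytosines and tested with edgeR 4.0.16 (R 4.3.3), with a library effect, group effects, a common dispersion and quasi-likelihood F tests over all 64549 tiles and 3 groups. The script was tested on simulated data. Group means over complete members were compared by exact two-sided permutation tests, and the SE of a difference combines the SDs of both groups. Alternatives were limma 3.58.1, other read and cytosine minimums, thinning, other density and distance limits, and leaving out each library. Positions count from 1. Tiles were summed in Python 3.11.15 with numpy 2.4.6 and pandas 2.3.3; permutation tests used scipy 1.17.1 and plots matplotlib 3.10.9.

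Tiles were named by size of change among members that passed, with at least 20 reads in every library and no overlap of groups, and by the highest, lowest and median level. Members, thresholds and lists were chosen with earlier results of these data known. Lists of genes had been drawn up and were not used, since no annotation of mRatBN7.2 was used here.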

Additional observations from a re-analysis of the deposited data

Results flagged for a closer look

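In groups of 4 or 5 libraries, 69 sets of values were searched for a library that stood apart from the others of its group by Dixon's criterion, and 2 did; chance alone marks about 1 set in 20. The share of complete members under 20% was 17.8% in day 1 replicate 2, the shallowest library, against 14.8% to 15.4% in the other day 1 libraries. In the tile at chr19:54823001-54824000, NSC replicate 1 stood at 48.1%, against 55.7% to 57.2% in the other NSC libraries.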

How the results depend on the processing

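No paired analysis was possible because replicates were numbered in accession order and pair no samples. The mean differences kept their direction under the settings run for them, which did not include centring (1.94 to 5.64 points for week 1 minus NSC, 3.68 to 8.71 points for day 1 minus NSC, -3.07 to -1.33 points for week 1 minus day 1) and passed in all but 1: over the members complete in 12 libraries, a setting chosen after seeing the data, week 1 minus day 1 was -2.04 points and did not pass. Without single libraries they were 3.04 to 3.80, 4.80 to 5.21 and -1.97 to -1.21 points for the same contrasts. Day 1 minus NSC then had an adjusted p of 0.0536 (exact permutation) when any 1 NSC library was left out, and week 1 minus day 1 passed only without day 1 replicate 5. Day 1 minus NSC without an NSC library, and week 1 minus day 1 without a week 1 library, could not pass after adjustment. Their smallest possible unadjusted p was 0.0357 (exact permutation). Week 1 minus NSC cannot pass without a single library, since 3 libraries against 4 cannot go below p = 0.0571 in the exact test.

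Counts of called members, given for week 1 minus NSC and then day 1 minus NSC, were 506 and 870 with at least 10 reads per cytosine, 154 and 266 with cytosines listed in all 13 files, 782 and 1452 with at least 5 cytosines per tile, and 655 and 1224 for members of 25 to 34 listed cytosines. These settings tested 4589, 1296, 10883 and 10503 members. Limma called 2007 at week 1 and, after centring, 4061 at day 1. Week 1 minus day 1 had 2 calls with at least 10 reads, 2 with cytosines in all 13 files and 2 when thinned. Without single libraries the counts were 546 to 1233 for week 1 minus NSC, 1372 to 2462 for day 1 minus NSC and 0 to 1 for week 1 minus day 1. The share called over all tiles is not given for any of these settings. These counts are therefore not read as particular to the members.

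With at least 10 reads per cytosine, the members' change minus that of shore tiles was -0.184 points for week 1 minus NSC, 1.15 for day 1 minus NSC and -1.33 for week 1 minus day 1; minus that of sparse tiles it was -0.355 and -1.14 for the first 2. By the median over tiles, week 1 minus day 1 was -2.98 points against shore tiles, and against sparse tiles week 1 minus NSC was 1.68 (passing) and day 1 minus NSC 1.39, turned in sign. Without single libraries the ranges for week 1 minus NSC, day 1 minus NSC and week 1 minus day 1 were 1.40 to 1.83, 2.76 to 2.96 and -1.43 to -0.995 points against shore tiles, and -0.0718 to 0.321, -0.651 to -0.498 and 0.516 to 0.908 against sparse tiles. Members minus sparse tiles turned to -0.0718 for week 1 minus NSC without week 1 replicate 3.

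The share under 20% passed with at least 30 reads per tile (0.840 points for week 1 minus NSC, 1.18 for day 1 minus NSC) and with 10 reads per cytosine (1.10 for day 1 minus NSC). Without single libraries it ran from 0.101 to 0.377 for week 1 minus NSC, from -0.194 to 0.556 for day 1 minus NSC and from -0.337 to 0.413 for week 1 minus day 1, turning to 0.413 without day 1 replicate 2 and to 0.00225 without week 1 replicate 1. The share at 80% and above passed in all 3 contrasts with 30 reads per tile (9.26, 14.0 and -4.70 points) and with 10 reads per cytosine (7.72, 14.1 and -6.38 points); without single libraries it ran from 9.68 to 11.5, 14.4 to 15.7 and -5.42 to -3.45 points. The cause of these changes was not tested. Of the tests of named tiles under other settings, 314 kept their direction and call and 1 did not pass. Some tiles could not be tested under a stricter setting: without the cytosines of highest coverage, the tiles at chr2:185531001-185532000 and chr19:54823001-54824000 had no test, and 16 and 12 of 20 tests were possible with 10 reads per cytosine and with cytosines in all 13 files.

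Depth limits the tile values: at 22 reads per median complete member, day 1 replicate 2 resolves only large differences, and complete members are the deeper read 13.8% of all.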
